A study of Mus musculus with 8 samples.

Results

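Mouse chromosome 16 (build mm9) was described bin by bin in Hi-C maps of mouse embryonic stem cells (mESCs), to locate where contacts over 2 to 10 Mb differed between L1-depleted and control cells. The chromosome was divided into 197 bins of 500 kb, of which 191 had enough coverage to be kept, out of 5093 kept bins on chromosomes 1 to 19 and X. Chromosome 16 was selected on these measured values: among 20 chromosomes it had the largest difference between the groups in the share of its contacts at 2 to 10 Mb. All values that compare the groups are therefore given as a description, with no test, and a gain means only that the L1 AMO mean was higher.

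Hi-C counts how often stretches of DNA lie close together in the nucleus, by cross-linking, cutting and joining DNA ends that are near each other. In both groups mESCs were nucleofected with an antisense morpholino oligonucleotide (AMO) at 5 nmol per 100 μl, enriched for transfected cells by sorting at 12 h and harvested at 36 h. The L1 AMO is directed against transcripts of LINE-1 (L1), an abundant retrotransposon, and the scramble (SCR) AMO is its control; each group had 2 samples, which the study describes as independent transfections. The sequences of both oligonucleotides are shown because they are what distinguishes the groups.
L1 AMO: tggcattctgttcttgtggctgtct
SCR AMO: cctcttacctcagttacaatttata

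Contacts along a chromosome become rarer as the distance between bins grows. On top of this decay, mammalian chromosomes are split into A compartments, which are gene-rich, active and dense in B1 repeats in the mouse, and B compartments, which are gene-poor, often at the nuclear periphery and dense in L1 repeats. Bins of the same compartment type contact each other more often than bins of different types.

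The maps held 112381720 contacts in SCR AMO replicate 1, 22252054 in SCR AMO replicate 2, 58030519 in L1 AMO replicate 1 and 46263849 in L1 AMO replicate 2. Contacts with both ends on chromosome 16 numbered 3280785 and 645620 in SCR AMO and 1763146 and 1444182 in L1 AMO. The SCR AMO samples thus included both the deepest and the shallowest map. The totals of the SCR AMO maps depart from those in the study's own table of valid pairs, whereas the L1 AMO totals come close, so the treatment and a difference in map making cannot be told apart.

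The share of the contact frequency of chromosome 16 that lay above 2 and up to 10 Mb was 10.7% and 9.75% in SCR AMO replicates 1 and 2, and 12.5% and 12.4% in L1 AMO replicates 1 and 2. Each L1 AMO value exceeded each SCR AMO value. The means were 10.2% ± 0.648 (SD, n = 2) and 12.5% ± 0.0955 (SD, n = 2), a difference of 2.27 percentage points, and the SCR AMO samples differed from each other far more than the L1 AMO samples did. In raw counts the share was 10.5% in SCR AMO replicate 1 (95% Wilson interval 10.46 to 10.53) and 9.59% (9.52 to 9.66) in SCR AMO replicate 2. It was 12.25% (12.20 to 12.29) in L1 AMO replicate 1 and 12.19% (12.13 to 12.24) in L1 AMO replicate 2. These intervals cover counting error only, and the gap between the SCR AMO samples was wider than they are. The size of the difference depends on the total and the limits: it was 4.03 points with contacts within a bin left out of the total, and 0.753 and 0.741 points at 5 to 10 and 4 to 20 Mb.

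Among the 20 chromosomes, the difference ran from 1.61 points on chromosome 11 to 2.27 on chromosome 16. Chromosome 18, the next below chromosome 16, stood at 2.17 points, and chromosome 6 at 2.16. The L1 AMO samples did not overlap the SCR AMO samples on any of the 20. On chromosomes 15 and 17, the nearest in length, the differences were 1.72 and 1.83 points. Chromosome 16 was therefore the upper end of a change seen on every chromosome, at a small distance from its neighbours in that order.

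The other distances moved as follows. Beyond 10 Mb, the share of chromosome 16 was 16.4% and 15.3% in SCR AMO and 14.8% and 14.5% in L1 AMO, lower in both L1 AMO samples. Up to 2 Mb, contacts within a bin included, it was 72.9% and 75.0% in SCR AMO against 72.6% and 73.1% in L1 AMO, and there the groups overlapped.

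The gain depended strongly on distance. In classes of 1 Mb, the log2 ratio (L1 AMO over SCR AMO) was 0.28 at 2 to 3 Mb, highest at 3 to 4 Mb with 0.38, and 0.36 at 4 to 5 Mb. It then declined steadily, to 0.28 at 6 to 7 Mb, 0.15 at 8 to 9 Mb and 0.084 at 9 to 10 Mb. In each of these classes the groups did not overlap. At 3 to 4 Mb, where the ratio peaked, contacts made up 1.83% and 1.68% of the chromosome's total in SCR AMO and 2.29% and 2.27% in L1 AMO, and the 4 ratios between single samples ran from 0.31 to 0.44.

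Near the limits of the 2 to 10 Mb band the change was graded. The class above 1.5 and up to 2 Mb, just outside the band, had a log2 ratio of 0.16, and the class above 2 and up to 2.5 Mb, just inside, 0.25. At the far limit the classes on either side of 10 Mb had ratios of 0.056 and 0.042, and in the outer of these the groups overlapped. From 13 Mb up to 27 Mb every 1-Mb class was lower in both L1 AMO samples, with -0.19 at 18 to 19 Mb and -0.20 at 20 to 21 Mb. Adjacent bins, at 0.5 Mb, also had a lower ratio, -0.15.

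Along the chromosome, the gain was present almost everywhere. The 2 L1 AMO values exceeded the 2 SCR AMO values in the share of a bin's own chromosome 16 contacts at 2 to 10 Mb in 189 of 191 bins, beside 96.9% of the 5093 bins of all chromosomes. Both lay below in 1 bin, beside 0.0982% over all chromosomes. That bin, at 5 to 5.5 Mb, had shares of 12.6% and 12.7% in SCR AMO and 12.4% and 12.1% in L1 AMO. In the bin at 13.5 to 14 Mb, an A bin, the groups overlapped, with 18.0% and 16.9% against 18.9% and 17.9%. Both bins were singled out after their values were seen.

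The size of the gain varied along the chromosome. Over all 191 bins the mean difference was 2.93 points. This is not on the scale of the chromosome's 2.27 points, where a contact between different bins counts once instead of in both bins. In segments of 5 Mb, all 20 were higher in both L1 AMO samples. Single bins were so in 96.9% over all chromosomes, so this count does not set chromosome 16 apart. Among the 19 segments with at least 5 kept bins, the difference spanned 2.52 points between the largest and the smallest. The largest gain in points was at 70 to 75 Mb, a difference of 4.20 points. There the mean share of the bins was 14.9% and 14.0% in SCR AMO and 18.5% and 18.8% in L1 AMO. The segment at 80 to 85 Mb followed with 15.3% and 14.3% against 18.8% and 18.9% (4.00 points), and that at 65 to 70 Mb with 14.8% and 14.2% against 18.3% and 18.4% (3.84 points). In the leading segment the gap between the groups was several times that between samples of a group. By log2 ratio the order differed, with 0.405 at 25 to 30 Mb above 0.368 at 70 to 75 Mb and 0.345 at 80 to 85 Mb.

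Among these 19 segments, the smallest gains in points lay at the distal end and between 30 and 40 Mb. The segment at 0 to 5 Mb, left out of the ranking with 4 kept bins, had a smaller one still, with 9.50% and 8.67% in SCR AMO and 10.3% and 10.2% in L1 AMO (1.13 points). At 95 to 98.5 Mb, where the end of the chromosome removes distal partners, the share was 8.24% and 8.03% in SCR AMO and 9.60% and 10.0% in L1 AMO (1.68 points). At 35 to 40 Mb it was 12.8% and 12.0% against 14.5% and 14.1% (1.84 points), and at 30 to 35 Mb 10.7% and 9.93% against 12.4% and 12.2% (2.02 points). In log2 ratio the 3 smallest were 0.199 at 35 to 40 Mb, 0.251 at 55 to 60 Mb and 0.257 at 10 to 15 Mb, and the segments at 30 to 35 and 95 to 98.5 Mb had 0.258 and 0.271. In each of these segments the samples of the groups did not overlap.

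The gain differed between compartment types. Compartments were called from the first eigenvector of the correlation matrix of the observed/expected map, with A given to the sign at which bins had more contacts with other chromosomes, which yielded 84 A and 107 B bins. In A bins the mean share at 2 to 10 Mb was 12.0% and 11.1% in SCR AMO and 13.7% and 13.7% in L1 AMO, a difference of 2.16 points. In B bins it was 13.8% and 13.0% against 16.90% and 16.96%, a difference of 3.54 points. All 107 B bins and 82 of the 84 A bins were higher in both L1 AMO samples, beside the 96.9% over all chromosomes, so these counts do not set the types apart. Across the 191 bins, the difference of group means had a Pearson r of -0.74 and a Spearman rho of -0.74 with the eigenvector. These bins come from the same 4 libraries, neighbouring bins share contacts, and the eigenvector was computed from the same maps.

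The contrast between A and B bins depended on the total against which a bin's contacts were set. With all contacts of a bin as the total, those with other chromosomes included, the share in A bins was 8.13% and 7.52% in SCR AMO and 10.69% and 10.96% in L1 AMO, and in B bins 10.7% and 9.84% against 14.0% and 14.2%. The log2 ratios were then 0.47 in A bins and 0.46 in B bins, so the relative gain was alike, while the gain in points was still larger in B bins (3.84 against 3.00). With chromosome 16 contacts alone as the total, the log2 ratios had been 0.25 and 0.34. The part of a bin's contacts that stayed on chromosome 16 was itself higher in L1 AMO, by 11.3 points in A bins and by 6.78 points in B bins.

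Over the 20 chromosomes, chromosome 16 ranked 1 in the gain of its B bins and 5 in that of its A bins. Both gains are parts of the change for which the chromosome was selected, so high ranks follow in part from that choice. B bins made up 56.0% of its kept bins, the rank of 4. Its longest run of B bins, at 57.5 to 84.5 Mb, was 27 Mb long, the longest B run of the 20 chromosomes; the longest on chromosomes 15 and 17 were 12 and 8.5 Mb. On chromosome 15 the gain was 1.73 points in A bins and 2.80 in B bins, and on chromosome 17 it was 1.68 and 3.16 points.

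Runs of at least 6 bins of a single compartment type numbered 11, with 5 of type A and 6 of type B, and held 169 of the 191 bins. The long B run at 57.5 to 84.5 Mb covered the 3 segments with the largest gain in points almost entirely. Its 54 bins had a mean share of 14.8% and 14.0% in SCR AMO and 18.2% and 18.3% in L1 AMO, a difference of 3.81 points. All 54 were higher in both L1 AMO samples, beside 96.9% of bins over all chromosomes, so this count does not set the run apart. The flanking B runs also gained, by 3.47 points at 50.5 to 56 Mb and by 3.36 points at 85 to 90 Mb.

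The B run at 25 to 29.5 Mb lies between A runs. It is called the short B run here beside the long one, though with 4.5 Mb it is not the shortest of the 6. Its share was 10.6% and 9.72% in SCR AMO and 13.6% and 13.8% in L1 AMO, a difference of 3.52 points and, with a log2 ratio of 0.43, the largest relative gain among the 11 runs. The remaining B runs, at 39 to 42.5 Mb and 45 to 48.5 Mb, differed by 3.35 and 3.20 points. The 6 B runs of this length thus gained between 3.20 and 3.81 points. The 9 B bins in shorter runs gained less, 2.66 points on average and from 1.48 to 3.48 points in single bins, which overlaps the A runs.

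The 5 A runs of at least 6 bins gained less in points. The proximal A run at 3.5 to 14.5 Mb had a share of 12.2% and 11.3% in SCR AMO and 14.1% and 14.0% in L1 AMO (2.31 points). Those at 15.5 to 19 Mb and 20 to 25 Mb differed by 2.46 and 2.38 points. The A run at 29.5 to 37 Mb had 11.1% and 10.3% against 12.7% and 12.5% (1.97 points), and the distal A run at 90 to 98.5 Mb 9.47% and 8.93% against 11.1% and 11.4% (2.04 points), though with 0.29 the distal run had the largest log2 ratio of the 5. In every one of the 11 runs both L1 AMO samples exceeded both SCR AMO samples. As 96.9% of single bins over all chromosomes did so too, this count does not set these runs apart.

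Within the long B run itself, contacts in L1 AMO were higher at middle distances and lower on either side. Pairs with both bins in the run had a log2 ratio of -0.23 above 0 and up to 1 Mb, 0.27 at 2 to 4 Mb, 0.34 at 4 to 6 Mb, 0.30 at 6 to 8 Mb and 0.16 at 8 to 10 Mb. At 15 to 20 Mb the ratio was -0.27 and at 20 to 27 Mb -0.34, so contacts between the ends of the run were lower in both L1 AMO samples. Pairs with no bin in the run had the same signs. Their ratios were -0.084 up to 1 Mb, 0.34 at 2 to 4 Mb, -0.12 at 15 to 20 Mb and -0.098 at 20 to 27 Mb. The pairs inside the run were 23.2% of all pairs at 2 to 10 Mb and held 27.2% of the chromosome's gain, while pairs with no bin in the run held 62.4% of the gain with 62.7% of the pairs. In log2 ratio the pairs inside (0.28) and those with no bin in the run (0.30) were alike.

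In single bins the types overlapped, with differences from -0.42 to 4.28 points in A bins and from 1.48 to 4.70 points in B bins. The A bin at 12 to 12.5 Mb had the largest of its type. Among bins more than 10 Mb from both ends of the kept part, the 5 with the largest differences were all B bins. The bin at 27 to 27.5 Mb, in the short B run between A runs, led with 9.27% and 7.94% in SCR AMO and 13.5% and 13.1% in L1 AMO, a difference of 4.70 points. The others, at 74 to 74.5, 70 to 70.5, 66 to 66.5 and 73 to 73.5 Mb, lay in the long B run and differed by 4.65, 4.61, 4.58 and 4.53 points.

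The 5 with the smallest differences were all A bins. The adjacent bins at 38 to 38.5 and 38.5 to 39 Mb had 15.9% and 15.2% against 16.8% and 16.0%, and 16.9% and 16.7% against 17.8% and 17.5%, differences of 0.882 and 0.901 points. The bins at 13.5 to 14, 22 to 22.5 and 30 to 30.5 Mb differed by 0.948, 0.964 and 1.41 points. Except at 13.5 to 14 Mb, the groups did not overlap in these bins either.

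Pairs of bins at 2 to 10 Mb were then divided by compartment. A-B pairs, which join unlike compartments, made up 2.62% and 2.41% of the chromosome's contact frequency in SCR AMO and 3.28% and 3.27% in L1 AMO, a log2 ratio of 0.38 with the 4 ratios between single samples from 0.32 to 0.45. A-A pairs made up 2.68% and 2.45% against 3.06% and 3.05%, a log2 ratio of 0.25 (0.19 to 0.32). B-B pairs made up 5.37% and 4.89% against 6.21% and 6.09%, a log2 ratio of 0.26 (0.18 to 0.34). All 3 classes were higher in both L1 AMO samples. The range of A-B pairs, from 0.321, lay barely above that of A-A pairs, up to 0.319, and overlapped the upper end of that of B-B pairs. The 4 ratios of each class come from the same samples, so these ranges do not show that the classes are separated. Of the chromosome's gain, B-B pairs held 45.0%, A-B pairs 33.6% and A-A pairs 21.5%. These classes had 1231, 940 and 685 of the 2856 pairs, so the split broadly followed the number of pairs.

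The gap between the like classes depended on the balancing, and A-A pairs stayed below B-B pairs. In raw counts the log2 ratio was 0.16 for A-A and 0.31 for B-B pairs, and with chromosome 16 balanced alone it was 0.18 and 0.32, whereas A-B pairs stood at 0.37 and 0.38. A-B pairs were the highest class under each of these settings. When classes held only the 20% most extreme bins by eigenvector, the log2 ratio was 0.88 for A-B, 0.16 for A-A and 0.24 for B-B pairs. The pairs in these smaller classes were not counted, so the 0.88 may rest on few places of the chromosome.

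Set against the mean of all pairs at the same distance, which removes the overall gain, A-B pairs lay closer to the like classes in L1 AMO. The observed/expected value of A-B pairs was 0.771 and 0.777 in SCR AMO and 0.828 and 0.834 in L1 AMO, a log2 ratio of 0.10. For A-A pairs it was 1.03 and 1.03 against 0.970 and 0.972, a log2 ratio of -0.080, and for B-B pairs 1.16 and 1.15 against 1.15 and 1.14, a log2 ratio of -0.015. Relative to distance, unlike compartments were thus closer to the average in both L1 AMO samples, and A-A pairs were lower. At 2 to 4 Mb this was otherwise for A-A pairs, with 0.928 and 0.936 against 0.940 and 0.949, a log2 ratio of 0.019, higher in both L1 AMO samples. B-B pairs were lower there, with 1.181 and 1.179 against 1.145 and 1.133, a log2 ratio of -0.051, but at 4 to 7 and 7 to 10 Mb their groups overlapped, with log2 ratios of -0.0018 and -0.0039.

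The classes separated further with distance, and A-A and B-B pairs changed places. At 2 to 4 Mb the log2 ratios were 0.35 for A-A, 0.41 for A-B and 0.26 for B-B pairs. At 7 to 10 Mb A-A pairs had a ratio of 0.016 and the groups overlapped, while A-B pairs had 0.27 and B-B pairs 0.16, with no overlap.

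Of the 2856 pairs at 2 to 10 Mb, 1627 had no overlap and were higher in L1 AMO, beside 51.5% of the pairs on all chromosomes, and 149 had no overlap and were lower, beside 6.92%. The share of pairs higher without overlap was 64.9% for A-B, 54.9% for A-A and 52.1% for B-B pairs. The share lower without overlap was 3.30%, 9.64% and 4.22%. These shares by class were not computed over all chromosomes, so they do not set chromosome 16 apart. The median raw count of a pair ranged from 18 to 95 between samples, so single pairs were measured with wide counting error.

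Pairs of runs gave the largest ratios where they joined A to B. Of the 14 pairs of runs with at least 20 bin pairs at 2 to 10 Mb, 6 were A-B, and their log2 ratios lay between 0.40 and 0.71, above those of the B-B pairs (0.23 to 0.35) and of the A-A pairs (-0.060 to 0.35). The A run at 29.5 to 37 Mb and the B run at 39 to 42.5 Mb led, with 0.125% and 0.117% of the chromosome's contact frequency in SCR AMO and 0.200% and 0.196% in L1 AMO, a log2 ratio of 0.71 (0.65 to 0.77). These values rest on 4269, 787, 3587 and 2892 raw contacts.

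The next 4 pairs also joined unlike types. The short B run at 25 to 29.5 Mb took part in 3 of them, with the A runs at 15.5 to 19 Mb (log2 ratio 0.63), 29.5 to 37 Mb (0.57) and 20 to 25 Mb (0.43). The long B run and the distal A run at 90 to 98.5 Mb had a ratio of 0.42. None of these 5 pairs overlapped between groups. In all, 6 of 6 A-B, 4 of 4 B-B and 3 of 4 A-A pairs of runs were higher in both L1 AMO samples, beside 97.9%, 83.2% and 47.8% of such pairs on all chromosomes.

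The 5 smallest ratios belonged to like types. The A runs at 20 to 25 and 29.5 to 37 Mb, which lie on either side of the short B run, had 0.198% and 0.187% in SCR AMO and 0.191% and 0.177% in L1 AMO, a log2 ratio of -0.060 at which the groups overlapped. The A runs at 3.5 to 14.5 and 20 to 25 Mb followed with 0.068. The long B run had 0.23 with the B run at 50.5 to 56 Mb and 0.24 with that at 85 to 90 Mb, and the A runs at 15.5 to 19 and 20 to 25 Mb had 0.29. The short B run was thus higher in L1 AMO in its contacts with the A runs on both sides, while the contacts of those A runs with each other overlapped between groups.

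Among 158 bin pairs at 2 to 10 Mb with at least 50 raw contacts in every sample, 126 had a log2 ratio above 0, beside 75.7% of such pairs on all chromosomes. Their median log2 ratio was 0.13, against 0.31 over all 2856 pairs of chromosome 16 and 0.11 over such pairs on all chromosomes. The largest was between 14 to 14.5 and 17 to 17.5 Mb, with 340, 58, 206 and 187 raw contacts and a log2 ratio of 0.53 (0.30 to 0.74). The smallest was between 4 to 4.5 and 13.5 to 14 Mb, with 219, 51, 79 and 57 raw contacts and a ratio of -0.56 (-0.70 to -0.42). Next to it stood the A bins at 44 to 44.5 and 48.5 to 49 Mb, with -0.51. The 5 largest and the 5 smallest were all pairs of A bins, and the limit on raw contacts favours pairs that are frequent in the shallowest map.

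The profile of change was similar in the pairs of equal replicate number, which share no sample. Over 191 bins, the difference between the replicates numbered 1 and that between the replicates numbered 2 had a Pearson r of 0.79 and a Spearman rho of 0.79. The mean difference was 2.50 points with an SD over bins of 0.929 in the first pair and 3.36 points with an SD of 1.16 in the other. With the numbers crossed r was 0.74, and the difference inside the SCR AMO group had an r of 0.082 with that inside the L1 AMO group. Over the 20 chromosomes the r of the numbered pairs ran from 0.56 to 0.85, with chromosome 16 at rank 7. The bins of a pair share libraries and neighbours share contacts, so no p-value is given.

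Contacts of chromosome 16 with other chromosomes differed as well. Of the raw contacts that involve chromosome 16, 38.3% (95% Wilson interval 38.29 to 38.37) and 38.8% (38.75 to 38.94) led to other chromosomes in SCR AMO, against 28.7% (28.66 to 28.77) and 26.2% (26.10 to 26.22) in L1 AMO. The groups did not overlap, and the share was lower in both L1 AMO samples. In the balanced maps this held in all 191 bins, beside 99.1% of the 5093 bins of all chromosomes, with mean shares of 32.3% and 32.7% against 22.4% and 20.0% in A bins and of 23.0% and 24.4% against 17.4% and 16.5% in B bins. Over the 20 segments of 5 Mb, the difference in this share had an r of 0.83 with the gain at 2 to 10 Mb, so a smaller drop in contacts to other chromosomes mostly went with a larger gain. The part of this change in the gain at 2 to 10 Mb was not tested.

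Coverage along the chromosome moved little. The share of the chromosome's raw coverage in a 5-Mb segment had log2 ratios between -0.13 and 0.063, and over the 20 segments these had an r of 0.75 with the gain at 2 to 10 Mb. The share of all contacts that involve chromosome 16 was 4.73% and 4.74% in SCR AMO and 4.26% and 4.23% in L1 AMO.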

How the data were processed

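Per the labels, the authors aligned reads to mm9, and their processing notes name CASAVA and HiC-Pro 2.7.1b; the deposited values are raw contact counts between 500-kb bins. The 2 matrices of each L1 AMO sample were summed. Bins below 0.1 of their chromosome's median coverage in any of the 4 samples were dropped, and each map was balanced by genome-wide iterative correction with Python 3.11.15, numpy 2.4.6, scipy 1.17.1 and pandas 2.3.3. Bins 4263 to 4459 are chromosome 16. The measures were tested on simulated data. There, balancing shrank a planted local gain. In the measured maps it went either way, with a larger log2 ratio for A-A pairs and a smaller one for B-B pairs than in raw counts.

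Named were the 3 segments, 5 bins and 5 pairs of runs at each end of the ranking, some of the 5 bin pairs at each end, and all runs of at least 6 bins. Members and lists were chosen with earlier results of these data known. Positions of genes were not used here. The 4 ChIP samples were not analysed here.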

Additional observations from a re-analysis of the deposited data

How the results depend on the processing

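The gain of 2.27 points at 2 to 10 Mb kept its direction under every alternative run. It was 4.03 points with contacts within a bin left out of the total, and 1.51, 0.753 and 0.741 points at 2 to 5, 5 to 10 and 4 to 20 Mb. Without single samples it ran from 1.81 to 2.73 points, lowest without SCR AMO replicate 2. Without single samples the log2 ratio at 3 to 4 Mb ran from 0.32 to 0.44, that of A-A pairs from 0.19 to 0.32, of A-B pairs from 0.32 to 0.44 and of B-B pairs from 0.20 to 0.33.

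The log2 ratio of A-A pairs was 0.16 in raw counts, 0.18 with chromosome 16 balanced alone and 0.16 with classes made of the 20% most extreme bins by eigenvector. In those smaller classes, whose pairs were not counted, A-B pairs had 0.88. With observed/expected values A-A pairs turned to -0.080 and B-B pairs to -0.015, and A-B pairs had 0.10, since by construction the mean change at each distance is removed. The excess of B over A bins, 1.38 points, was 1.45 after thinning to the lowest intrachromosomal total, 1.23 with contacts within a bin left out, and 0.843 with all contacts of a bin as the total, an alternative chosen after seeing the data. The span of the segments was 2.90 points with contacts within a bin left out and 2.07 points in segments of 10 Mb. The r between numbered pairs was 0.75 with the first L1 AMO matrices, 0.66 with the second and 0.62 after thinning. Apart from the removal by construction in observed/expected values, the cause of these shifts was not tested.

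The means of the differences within replicate numbers (replicate block) were 2.27 points for the share and 0.38 for A-B pairs. No paired test was made because no result comes from a test. Chromosome 16 ranked 1 under each alternative for which the rank was recorded, which leaves out the other distance limits. It was selected for this rank on the same maps, so the repeated rank is no independent evidence. The count of 189 bins ran from 135 at 4 to 20 Mb to 191. Of 378 values of named regions, 334 moved by less than 1 SD, 44 moved further and none reversed. The SD was pooled over the 2 groups of 2 samples. Of 157 values of the main results, 135 stayed within 1 SD or a preset limit, 20 moved further and 2 reversed.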

Other observations

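Beyond 10 Mb, contacts between runs of like type on chromosome 16 were lower in L1 AMO in many pairs, in a share no larger than over all chromosomes. Of 9 pairs of A runs, 8 were lower in both L1 AMO samples, beside 95.6% of such pairs on all chromosomes. Their log2 ratios had a median of -0.37 against -0.40 on all chromosomes. The lowest of the 9 log2 ratios, -0.52, was between the A runs at 15.5 to 19 and 90 to 98.5 Mb. Their contact frequency was 0.122% and 0.113% of the chromosome's total in SCR AMO and 0.0886% and 0.0756% in L1 AMO. Of 13 pairs of B runs, 7 were lower (71.7% over all chromosomes) and 0 higher (5.44%), with a median of -0.096 against -0.19. Of 27 A-B pairs, 13 were higher (25.2%) and 5 lower (48.4%), with a median of 0.060 against -0.10. In observed/expected values, which remove the lower level beyond 10 Mb, 6 A-A pairs were lower (74.8%) and 1 higher (8.11%). Of B-B pairs 4 were lower (31.2%) and 2 higher (34.4%), with a median log2 ratio of 0.0052, and of A-B pairs 23 were higher (58.3%) and 4 lower (13.6%). The long B run and the distal A run at 90 to 98.5 Mb had 0.919% and 0.878% against 1.01% and 1.04%, a log2 ratio of 0.19.

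The 2 matrices of each L1 AMO sample were close to each other, with raw shares at 2 to 10 Mb of 12.3% and 12.2% in replicate 1 and of 12.2% and 12.2% in replicate 2. With the first matrices alone the profiles of the numbered pairs had an r of 0.75, and with the second alone 0.66.

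With 2 samples in each group, the spread between replicates is poorly known. The SCR AMO samples differ in depth, and the treatment and the making of their maps cannot be told apart. Chromosome 16 was selected on the same contrast, and no estimate of its gain from unselected data is given. At 500 kb, changes within a bin are not seen, and bins near the chromosome's ends have fewer partners at 2 to 10 Mb.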
